A study of Homo sapiens with 8 samples.

Results

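The effect of JMJD3 that melanoma cells shared in 2 settings was measured over 8 of the 8 expression arrays of the series, 4 from cells carrying JMJD3 and 4 from cells carrying the vector. All cells were A375-LM3, cells named for A375, an established human melanoma line. In each setting there were 2 vector arrays and 2 JMJD3 arrays: cells grown in medium with serum for 1 day, called cultured here, and cells isolated from a primary tumor that A375-LM3 cells had formed and then kept in culture for 3 passages, called tumor-dissociated. The labels mark the JMJD3 arrays WT. The promoter that drives the construct, whether the lines were clones or pools, and whether replicates came from separate cultures or tumors are not stated by the labels. The p-values therefore speak of spread among arrays, part or all of which may be technical. The question put to the arrays was which transcripts JMJD3 moved once the difference between the 2 origins was taken out, and whether each of the 4 arrays a side went the same way.

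JMJD3, encoded by KDM6B, is a histone demethylase that takes methyl groups off lysine 27 of histone H3. Polycomb enzymes place that mark on genes that are kept silent, and its removal is associated with gene activation. JMJD3 is best known for its induction in macrophages by inflammatory signals and for its part in developmental gene activation, including in skin cells.

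Of 12415 genes tested, 36 passed an adjusted p of 0.05 for the common effect, and 35 of those 36 were higher with JMJD3. That was 0.290% of the genes tested, with 0.282% called higher and 0.00805% called lower. The fitted rises ran from 0.78 for STEAP3 to 3.59 for DMBT1 on the log2 scale. No vector array of DMBT1 was above background, so its rise is given below as a bound. The called rises included small proline-rich proteins of the skin barrier, secreted growth factor regulators, BMP2, PTGS2 and the urea transporter SLC14A1. The single gene called lower, TMEM108, fell by 0.62 on the log2 scale. The test was limma's moderated test with origin as a covariate and Benjamini-Hochberg adjustment over all genes. Fold changes came from background-corrected intensities, and are given as bounds where a group was never above background. Each intensity below is the deposited value, on a scale where 161 was the upper edge of background. Where 4 vector or 4 JMJD3 values are listed together, the first pair is cultured replicates 1 and 2 and the second pair tumor-dissociated replicates 1 and 2. An error after ± on a log2 change is its standard error, over 4 arrays a side.

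**Figure D1:**
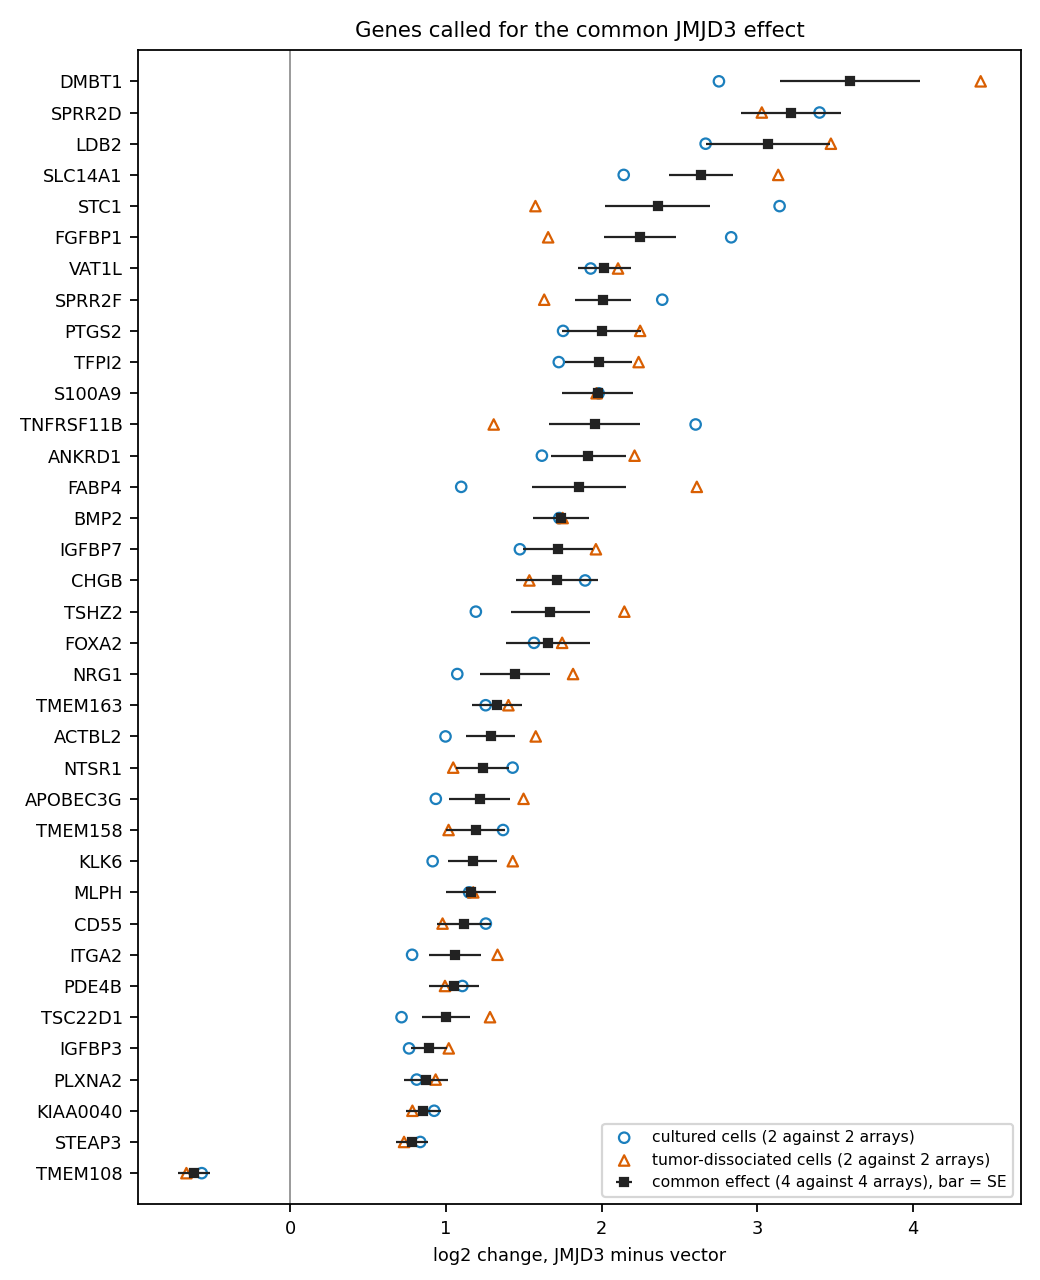
Log2 change, JMJD3 over vector, averaged over both origins, for the 36 called genes, with bars of 1 standard error, beside the change in cultured cells and in tumor-dissociated cells alone. TMEM108 is the only gene below 0, and every called gene has the same sign in both origins. For 11 of the genes a vector group was never above background, and the plotted values there are fitted, not measured, sizes.

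On each of the 36 called genes, both JMJD3 arrays lay beyond both vector arrays within cultured cells and again, in the same direction, within tumor-dissociated cells. Arrays agreed in this way on 9.24% of all genes tested, 4.76% higher and 4.48% lower. The call and the agreement use the same arrays, so the 36 of 36 is a description of the called genes. On 31 of the 36, all 4 JMJD3 arrays lay beyond all 4 vector arrays with origins pooled, against 3.02% of all genes, 1.76% above and 1.26% below. VAT1L, NTSR1, MLPH, TSHZ2 and PDE4B overlapped when origins were pooled.

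Several technical facts bear on every value here. The columns of the deposited table share 1 distribution, and between 19913 and 19923 probes were above the background level on each array. The first principal component, with 54.0% of the variance, separated cultured from tumor-dissociated arrays. The second, with 19.6%, had tumor-dissociated vector replicate 2 and tumor-dissociated JMJD3 replicate 1 at its ends. Without both of those arrays 25 genes were called, 24 of them higher and 21 of them among the 36. As total RNA was measured in bulk, more RNA per cell and more cells of a kind cannot be told apart.

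The probe for KDM6B gave little reading of the construct. Its deposited intensity was 150.3 and 144 on the cultured vector arrays, 156 and 150.0 on the cultured JMJD3 arrays, 148 and 141 on the tumor-dissociated vector arrays and 162 and 159.7 on the tumor-dissociated JMJD3 arrays. The JMJD3 arrays were the higher ones in tumor-dissociated cells, the ranges overlapped in cultured cells, and only 1 of 8 arrays was above background. Tested without a filter on dim probes, the common change was 0.32 ± 0.13 on the log2 scale with an adjusted p of 0.564 by limma. Whether the construct holds the stretch that this probe reads is not stated by the labels, and the probe neither checks the labels nor measures the construct.

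Among the lists of genes described here, that of the epidermal differentiation complex had 3 of 13 tested members called higher and 0 lower. Over all genes tested, 0.282% were called higher. The lists were chosen with earlier results of these data known, so counts of calls in them are descriptions and no test. The epidermal complex, a cluster on chromosome 1, encodes proteins that build and cross-link the outer skin barrier. SPRR2D and SPRR2F, precursors of the cornified envelope, and S100A9, a calcium-binding subunit of calprotectin, were the members that rose. Promoter stretches are shown for SPRR2F from this complex and for TFPI2 and ANKRD1, because these were the called genes with an AP-1 motif, and for SLC14A1, which had the lowest p. They are the 250 bases before each gene's RefSeq start on GRCh38.p14, read 5′ to 3′ on the gene's strand, with the AP-1 motif TGANTCA and the TATA motif TATAAA in capitals.
SPRR2F promoter, chr1:153113517-153113766, minus strand: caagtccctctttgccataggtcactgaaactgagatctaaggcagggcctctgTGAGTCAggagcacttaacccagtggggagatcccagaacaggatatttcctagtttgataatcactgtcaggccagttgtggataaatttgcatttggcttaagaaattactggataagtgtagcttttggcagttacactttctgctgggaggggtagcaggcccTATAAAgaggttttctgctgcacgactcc
TFPI2 promoter, chr7:93890754-93891003, minus strand: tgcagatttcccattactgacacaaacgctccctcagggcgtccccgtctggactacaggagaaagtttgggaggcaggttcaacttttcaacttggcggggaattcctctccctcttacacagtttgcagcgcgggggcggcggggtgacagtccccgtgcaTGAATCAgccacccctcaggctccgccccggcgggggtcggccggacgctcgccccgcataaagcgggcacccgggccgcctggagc
ANKRD1 promoter, chr10:90921088-90921337, minus strand: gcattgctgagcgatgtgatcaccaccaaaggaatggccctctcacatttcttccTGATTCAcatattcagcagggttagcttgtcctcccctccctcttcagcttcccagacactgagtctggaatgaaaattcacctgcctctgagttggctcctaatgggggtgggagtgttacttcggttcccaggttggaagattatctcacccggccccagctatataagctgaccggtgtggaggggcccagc
SLC14A1 promoter, chr18:45723931-45724180, plus strand: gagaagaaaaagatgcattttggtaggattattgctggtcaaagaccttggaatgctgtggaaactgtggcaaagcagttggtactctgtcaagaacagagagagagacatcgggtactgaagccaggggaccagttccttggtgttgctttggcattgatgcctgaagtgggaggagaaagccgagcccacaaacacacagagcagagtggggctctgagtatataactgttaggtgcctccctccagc

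A RefSeq promoter was available for 25 of the 36 called genes, and both strands were searched. TGANTCA lay in 3 of those 25, or 12%, against 4.12% of 9935 tested genes with a promoter and 6.60% of all 27305 promoters. TATAAA lay in 4 of the 25, SPRR2F, S100A9, DMBT1 and PTGS2, or 16%, against 5.98% of tested genes and 11.1% of all promoters. The TEAD motif GGAATG lay in 2 of the 25, SLC14A1 and ANKRD1, or 8%, against 9.47% of tested genes. The cAMP-response motif TGACGTCA and the NF-kB motif, GGG and TTTCC with 2 bases of any kind between them, lay in 0 of the 25, against 2.98% and 1.95% of tested genes. In SPRR2F the AP-1 match began at -196 and the TATA match at -29 from the gene's start, and the AP-1 match began at -87 in TFPI2 and at -195 in ANKRD1. A match describes the letters in these windows and nothing about binding.

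SPRR2D had intensities of 198 and 211 on the cultured vector arrays, 1097 and 1264 on the cultured JMJD3 arrays, 206 and 132 on the tumor-dissociated vector arrays and 610.3 and 501 on the tumor-dissociated JMJD3 arrays. All 4 JMJD3 arrays were above all 4 vector arrays, and the cultured JMJD3 arrays were the brightest. Its common change was 3.21 ± 0.32 on the log2 scale, a 9.28-fold rise, with an adjusted p of 0.00630 by limma. SPRR2F gave 140.3, 147, 150.5 and 143 on the vector arrays and 295, 345, 254 and 226 on the JMJD3 arrays. The vector arrays were all within background and the JMJD3 arrays all above it, a rise of at least 2.91-fold with an adjusted p of 0.00309 by limma. S100A9 gave 142, 135, 145 and 138 on the vector arrays and 225, 266, 329 and 204 on the JMJD3 arrays, again with no vector array above background. Its rise was at least 2.49-fold, with an adjusted p of 0.0121 by limma that reached 0.0590 without tumor-dissociated vector replicate 1. The SPRR2 genes are near-identical copies and probe sequences were not compared, so signal from one may reach the probe of another. A second SPRR2D probe and the SPRR2E, SPRR2B and SPRR2G probes were never above background, and the SPRR2A probe was above it on 1 array.

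No other listed gene of this complex passed. Of the 13 tested members of the list, 6 had arrays that agreed on a rise and 0 on a fall, and the median change was 0.23 on the log2 scale beside -0.01 over all genes tested. The 6 were 46.2% of the list, against 4.76% of all genes tested with a rise and 4.48% with a fall. The list leaves out 4 further genes of the complex that were tested, S100A1 at -0.26, S100A14 at -0.21, S100A13 at 0.32 and S100A5 at 0.41, none of them called and none with arrays that agreed. With them, 13 of 17 tested genes stood above 0, beside 6035 of all 12415 genes tested. S100A11 stood at 0.35 and S100A4 at 0.32, with adjusted p of 0.488 and 0.445 by limma. FLG, which encodes the filament-bundling protein filaggrin, stood at -0.10, and involucrin and loricrin were not above background on enough arrays to be tested. Of the markers of keratinocytes and red cells, 0 of 4 tested members passed, and DSG3, KRT1 and KRT5 were never above background. KRT10, with intensities from 2710 to 3945, was above background on all 8 arrays, HBA2 on 6 and KRT14 on 5.

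The secreted growth and angiogenic factors were the list with the most calls, 6 of 26 tested members higher and 0 lower. As the lists were chosen with earlier results of these data known, that rank is a description and no test. The called members were STC1, FGFBP1, TNFRSF11B, IGFBP7, NRG1 and IGFBP3. The list's median change was 0.48 on the log2 scale, and arrays agreed on a rise for 8 members and on a fall for 1. Those were 30.8% and 3.85% of the list, against 4.76% and 4.48% of all genes tested. FGFBP1, a carrier that releases fibroblast growth factors from the matrix, had intensities of 153 and 159.5 on the cultured vector arrays, 451 and 520.5 on the cultured JMJD3 arrays, 191 and 201 on the tumor-dissociated vector arrays and 451 and 354 on the tumor-dissociated JMJD3 arrays. Both cultured vector arrays were within background, every JMJD3 array exceeded every vector array, and the rise was at least 4.52-fold with an adjusted p of 0.00630 by limma.

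STC1, a secreted glycoprotein hormone, had intensities of 268 and 235 on the cultured vector arrays, 1218 and 1638 on the cultured JMJD3 arrays, 836 and 884 on the tumor-dissociated vector arrays and 3437 and 1629 on the tumor-dissociated JMJD3 arrays. The vector level was higher in tumor-dissociated than in cultured cells, and all 4 JMJD3 arrays still exceeded all 4 vector arrays. The change was 2.36 ± 0.34 on the log2 scale, 3.14 in cultured and 1.58 in tumor-dissociated cells, with an adjusted p of 0.0263 by limma and 0.108 with the replicate number as a block. TNFRSF11B, the decoy receptor osteoprotegerin that binds RANK ligand, gave 285, 263, 416 and 628 on the vector arrays and 921, 1428, 1270.4 and 968 on the JMJD3 arrays. Its log2 change was 2.60 in culture and 1.31 in tumor-dissociated cells, with an adjusted p of 0.0352 by limma and 0.127 with the block. The difference between origins did not pass the test for either gene, with adjusted p of 0.450 for STC1 and 0.537 for TNFRSF11B by limma.

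Of the insulin-like growth factor binding proteins, IGFBP7 and IGFBP3 rose. IGFBP7 had intensities of 475, 447, 884 and 659 on the vector arrays and 1090.0, 1106, 3811 and 1888 on the JMJD3 arrays. The groups did not overlap, and the change was 1.72 ± 0.22 on the log2 scale with an adjusted p of 0.0171 by limma. IGFBP3, which carries insulin-like growth factors in the circulation, was bright on every array and rose by 0.89, with an adjusted p of 0.0171 by limma and 0.0717 with the block. IGFBP5 stood at 1.11 with an adjusted p of 0.232, and its arrays agreed on a rise. NRG1, a ligand of the ERBB receptors, rose by 1.45 with an adjusted p of 0.0394, or 0.122 with the block. VEGFA, the main angiogenic factor, stood at -0.05 and FGF2 at -0.41, neither of which passed.

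BMP2, a secreted ligand of the bone morphogenetic protein pathway, was the called member among 16 tested genes of that pathway. Its intensities were 188 and 207 on the cultured vector arrays, 401 and 433 on the cultured JMJD3 arrays, 258 and 195 on the tumor-dissociated vector arrays and 586 and 442 on the tumor-dissociated JMJD3 arrays. No vector array reached any JMJD3 array, and the change was nearly equal in the 2 origins, 1.73 in cultured and 1.75 in tumor-dissociated cells. The common change was 1.74 ± 0.18, a 3.34-fold rise with an adjusted p of 0.00630 by limma. The list's median was 0.16 (0.0021 leaving out tumor-dissociated vector replicate 2 and 0.24 leaving out cultured vector replicate 2), with -0.02 in cultured and 0.34 in tumor-dissociated cells, and arrays agreed on a rise for 3 members and on a fall for 1. The 3 and the 1 were 18.75% and 6.25% of the list, against 4.76% and 4.48% of all genes tested. Values in brackets after a list's median are its lowest and highest when 1 array was left out.

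TFPI2, an inhibitor of serine proteases that acts in the extracellular matrix, was the called member among 39 tested matrix and protease genes. Its intensities were 257, 298, 237 and 187 on the vector arrays and 647, 709.8, 759 and 487 on the JMJD3 arrays. The groups did not overlap, with a 3.95-fold rise, 1.98 ± 0.21 on the log2 scale, and an adjusted p of 0.00788 by limma. Arrays agreed on a rise for 7 members of this list and on a fall for 0, and the median was 0.30. The 7 were 17.9% of the list, against 4.76% of all genes tested with a rise and 4.48% with a fall. LAMB3, a laminin subunit, gave 232, 267, 211 and 184 on the vector arrays and 352, 430.0, 869 and 310.3 on the JMJD3 arrays. It stood at 1.53 ± 0.38 with an adjusted p of 0.232 by limma, so the agreement of its arrays was not matched by a call. MMP1, an interstitial collagenase, stood at 3.56 in cultured and 0.24 in tumor-dissociated cells, and the common change of 1.90 ± 0.65 had an adjusted p of 0.390.

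PTGS2, which encodes the prostaglandin-producing enzyme COX-2, was the called member among 21 tested NF-kB targets. Its intensities were 206 and 183 on the cultured vector arrays, 568 and 305 on the cultured JMJD3 arrays, 249 and 199.9 on the tumor-dissociated vector arrays and 689 and 651 on the tumor-dissociated JMJD3 arrays. The lowest JMJD3 array, cultured replicate 2, stood above the highest vector array. The common change was 2.0 ± 0.25 on the log2 scale, with an adjusted p of 0.0168 by limma that became 0.0889 without tumor-dissociated vector replicate 1. CCL2, a monocyte-attracting chemokine, lay just outside the threshold with an adjusted p of 0.0508 by limma, while TMEM108 at 0.0485 and PLXNA2 at 0.0478 lay just inside. CCL2 had intensities of 304, 280.2, 669 and 717 on the vector arrays and 927, 989, 7369.9 and 1581 on the JMJD3 arrays, with no overlap between groups and a change of 2.32 ± 0.39. The list as a whole had a median of 0.14 (0.07 leaving out tumor-dissociated vector replicate 2 and 0.22 leaving out tumor-dissociated vector replicate 1), with arrays agreeing on a rise for 4 members and on a fall for 0. The 4 were 19.0% of the list, against 4.76% of all genes tested with a rise and 4.48% with a fall.

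Outside these lists, SLC14A1, a membrane urea transporter, had the lowest p of all genes. Its intensities were 194 and 195 on the cultured vector arrays, 467 and 555 on the cultured JMJD3 arrays, 163 and 179 on the tumor-dissociated vector arrays and 782 and 633 on the tumor-dissociated JMJD3 arrays. The 4 vector arrays lay in a narrow band that no JMJD3 array entered. The rise was 6.23-fold, 2.64 ± 0.21 on the log2 scale, with 2.14 in cultured and 3.13 in tumor-dissociated cells and an adjusted p of 0.00293 by limma. A second SLC14A1 probe, never above background, stood at 0.52 with arrays that did not agree. VAT1L gave 158 and 165 on the cultured vector arrays, 368 and 291 on the cultured JMJD3 arrays, 300.4 and 241 on the tumor-dissociated vector arrays and 937 and 711 on the tumor-dissociated JMJD3 arrays. It rose within each origin, and the higher tumor-dissociated vector array reached the lower cultured JMJD3 array. Its change was 2.02 ± 0.17 with an adjusted p of 0.00293 by limma.

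**Figure D2:**
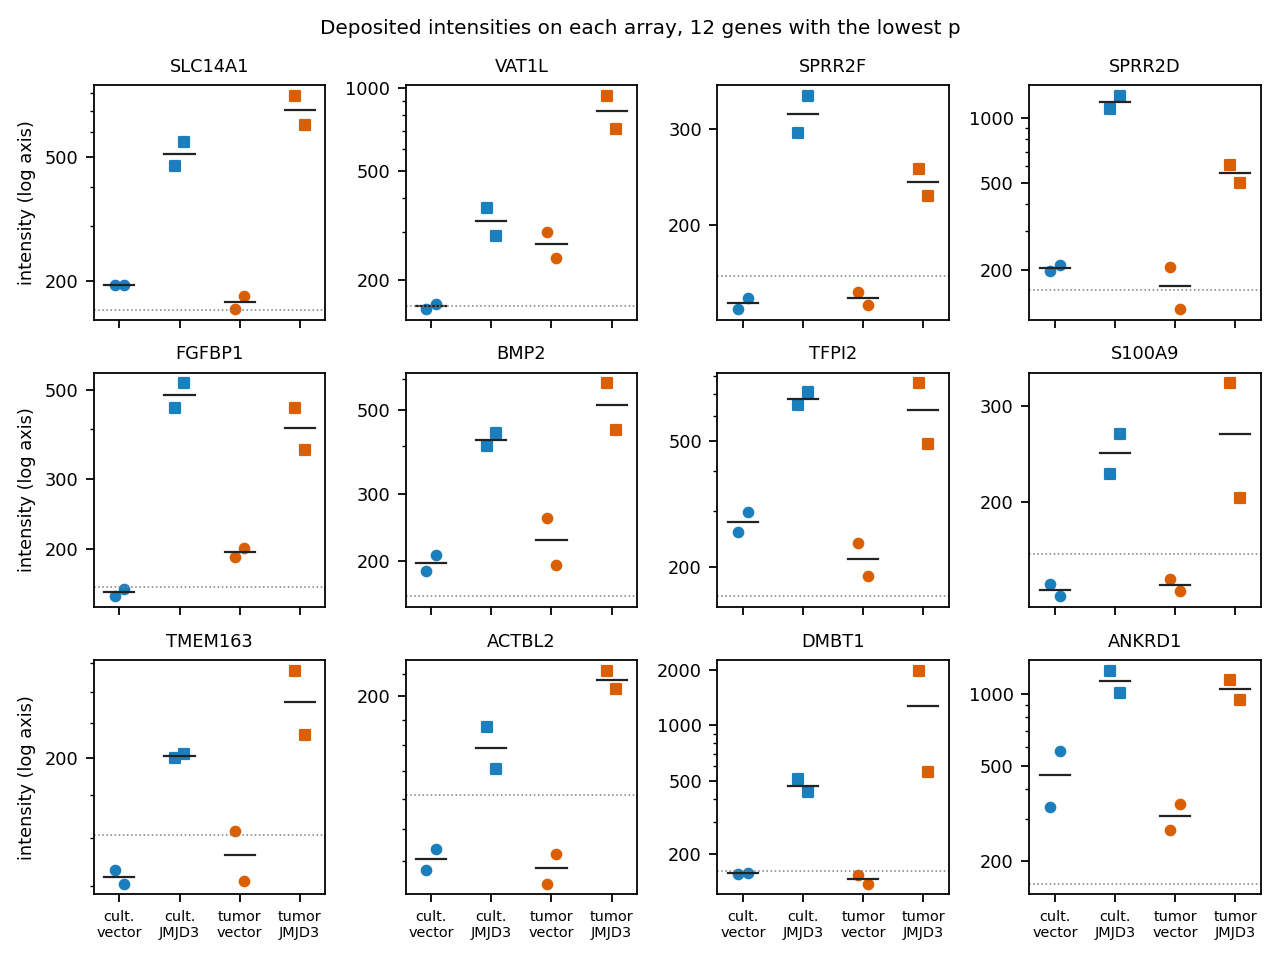
Deposited intensity on a log axis for the 12 genes with the lowest p, each point 1 array, each bar the mean of 2 arrays, and the dotted line the background level of 161. In every panel the JMJD3 arrays of an origin lie above its vector arrays, and SPRR2F, S100A9, ACTBL2 and DMBT1 have all 4 vector arrays under the line.

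DMBT1 and LDB2 had large rises carried unevenly by the arrays. For DMBT1 the rise is that of the probe used. A second DMBT1 probe, above background on 1 array, stood at 0.18 with arrays that did not agree. DMBT1, a secreted scavenger receptor of mucosal surfaces, gave 156 and 157 on the cultured vector arrays, 508 and 432 on the cultured JMJD3 arrays, 153 and 138 on the tumor-dissociated vector arrays and 1980.2 and 556 on the tumor-dissociated JMJD3 arrays. No vector array was above background, and tumor-dissociated JMJD3 replicate 1 stood far above the other JMJD3 arrays. Its rise was at least 9.85-fold with an adjusted p of 0.0166 by limma, or 0.0971 without tumor-dissociated vector replicate 1. LDB2, a cofactor of LIM-domain transcription factors, gave 169 and 162 on the cultured vector arrays, 769 and 341 on the cultured JMJD3 arrays, 312 and 255 on the tumor-dissociated vector arrays and 3592 and 1233 on the tumor-dissociated JMJD3 arrays. It was also highest on tumor-dissociated JMJD3 replicate 1, and its 8.40-fold rise, 3.07 ± 0.40 on the log2 scale, had an adjusted p of 0.0171 by limma. That became 0.101 without tumor-dissociated vector replicate 1.

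ANKRD1, a nuclear ankyrin-repeat protein, gave 335, 577, 269 and 347 on the vector arrays and 1246, 1009, 1141 and 944 on the JMJD3 arrays. The JMJD3 arrays all exceeded the vector arrays, among which cultured vector replicate 2 was the brightest. It rose 3.77-fold, 1.91 ± 0.24 on the log2 scale, with an adjusted p of 0.0168 by limma and 0.0761 with the block. TMEM163 and ACTBL2 rose from dim levels, by at least 2.10-fold and at least 1.51-fold, and ACTBL2 had an adjusted p of 0.0717 with the block.

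The remaining called genes are given here because they were called, after their values were seen. NTSR1, the neurotensin receptor, rose by 1.24, CD55, which protects cells from complement, by 1.12, and ITGA2, a collagen-binding integrin subunit, by 1.06 on the log2 scale. With the replicate block their adjusted p by limma were 0.0927, 0.127 and 0.0788, so none of these calls held. PLXNA2, a semaphorin receptor, rose at least 1.28-fold (0.0761 with the block). PDE4B, which degrades cyclic AMP, rose by 1.05 on the probe used (0.105 with the block), and STEAP3, an iron reductase, by 0.78. Other PDE4B probes, above background on 8 and 7 arrays, stood at 0.48 and 0.59 with agreeing arrays, and another, never above background, at 0.01. The PDE4B call was lost when a gene's probes were averaged. CHGB, a protein of secretory granules, rose by 1.72 (0.108 with the block), and KLK6, a secreted serine protease, at least 1.80-fold.

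Among nuclear and intracellular proteins, FOXA2, a pioneer transcription factor of endoderm, rose at least 1.46-fold from vector arrays all within background. Tumor-dissociated JMJD3 replicate 2, at 150.9, was within background too. Other FOXA2 probes stood at -0.07 and -0.03, never above background and without agreeing arrays. TSHZ2, a zinc-finger protein, rose at least 2.61-fold and FABP4, a fatty acid carrier, at least 2.47-fold, with adjusted p of 0.0924 and 0.153 by limma under the block. TSC22D1, a leucine-zipper protein, rose by 1.00 on the probe used (0.0809 with the block). Of its 3 other probes, all above background on 8 arrays, 2 stood at 1.32 and 0.86 with agreeing arrays and 1 at -0.04. APOBEC3G, a cytidine deaminase that restricts retroviruses, rose by 1.22 (0.0788 with the block), MLPH, which links melanosomes to their motor, by 1.16, and TMEM158, a membrane protein induced by Ras signalling, by 1.19. KIAA0040 rose by 0.86 (0.0611 with the block). Values marked as with the block are limma's adjusted p. Across these genes the adjusted p ran from 0.0171 for STEAP3 to 0.0478 for PLXNA2 by limma.

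TMEM108 gave 222, 213, 209 and 212 on the vector arrays and 185, 176, 168 and 173 on the JMJD3 arrays. All 4 JMJD3 arrays were below all 4 vector arrays, and the fall was small, -0.62 ± 0.10 on the log2 scale or 1.53-fold. The adjusted p was 0.0485 by limma, 0.0788 with the block and at most 0.215 without 1 array, and 0 of the 8 fits without 1 array called it. LIMCH1, an actin-binding protein, had the larger fall, from 1839, 2071, 2041 and 3203 on the vector arrays to 991, 1161, 793 and 1395 on the JMJD3 arrays. Its change of -1.15 ± 0.22 had an adjusted p of 0.112 by limma and 0.0336 with the block, where it was the single gene called lower.

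Arrays of both origins agreed on 591 genes higher and 556 lower. Among those with a change under 0.25 on the log2 scale, 153 were higher and 182 lower, and between 0.25 and 0.5 the numbers were 242 and 296. Between 1 and 2 there were 68 higher and 6 lower, and above 2 there were 12 and 0. The 6 agreeing falls beyond 1 were CSRP2, FLRT3, LIMCH1, NMU, PCDH20 and H19, and none passed. At an unadjusted p of 0.05, 647 genes were higher and 573 lower, 1220 in all, where 621 would be expected from chance alone.

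**Figure D3:**
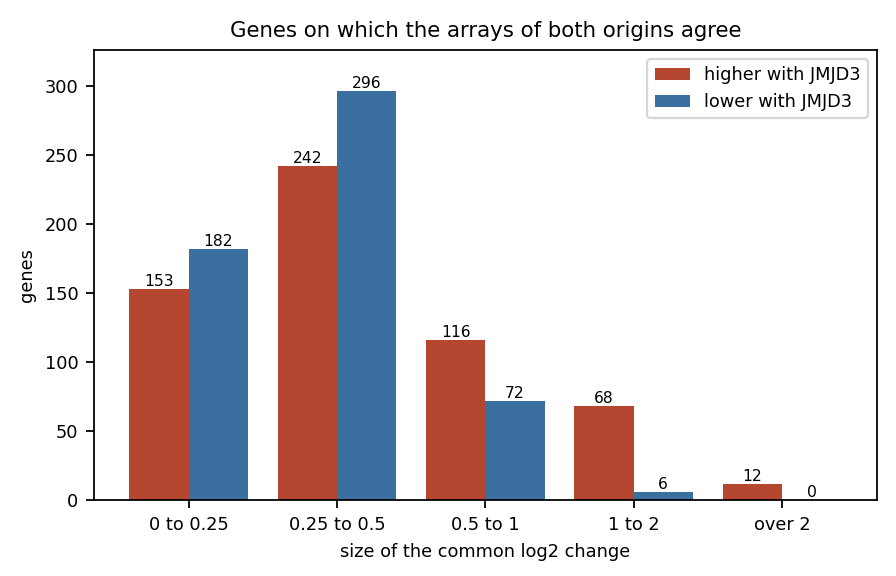
Number of genes on which the arrays of both origins agreed, by size of the common log2 change, with rises and falls drawn apart. Falls outnumber rises below 0.5, and above 1 there are 80 rises and 6 falls.

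Each origin alone gave other sets of genes. In cultured cells 11 genes passed, 0.0886% of those tested, all higher by limma (at an unadjusted p under 0.05, 315 were higher and 224 lower), and 7 of them were in the common set. In tumor-dissociated cells 102 passed, 0.822%, with 46 higher (0.371%) and 56 lower (0.451%), and 23 of them were in the common set. SLC14A1, VAT1L, SPRR2F, SPRR2D and FGFBP1 passed in both origins alone. STC1 and TNFRSF11B passed alone in culture only among the 36, and 18 more passed alone in tumor-dissociated cells. The remaining 11 of the 36 passed in neither alone, among them NTSR1, MLPH, CD55 and STEAP3.

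The genes that passed in tumor-dissociated cells alone were then looked at in culture. Of the 46 higher genes, 39 had the same sign in cultured cells and 31 had agreeing arrays there too, with a median cultured change of 0.74 on the log2 scale. Of the 56 lower genes, 19 had the same sign, 10 had agreeing arrays and 0 were called in common, with a median cultured change of 0.10. All 46 higher genes were above background on at least 1 cultured array, against 36 of the 56 lower genes. Over all genes tested, arrays of both origins agreed on a rise for 4.76% and on a fall for 4.48%, and the median cultured change was -0.01. The share of all genes with the same sign in both origins was not counted. Both sets were picked by their tumor-dissociated arrays, which also enter the agreement, so these counts are descriptions. Whether the shares of the 2 sets differ was not tested.

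**Figure D4:**
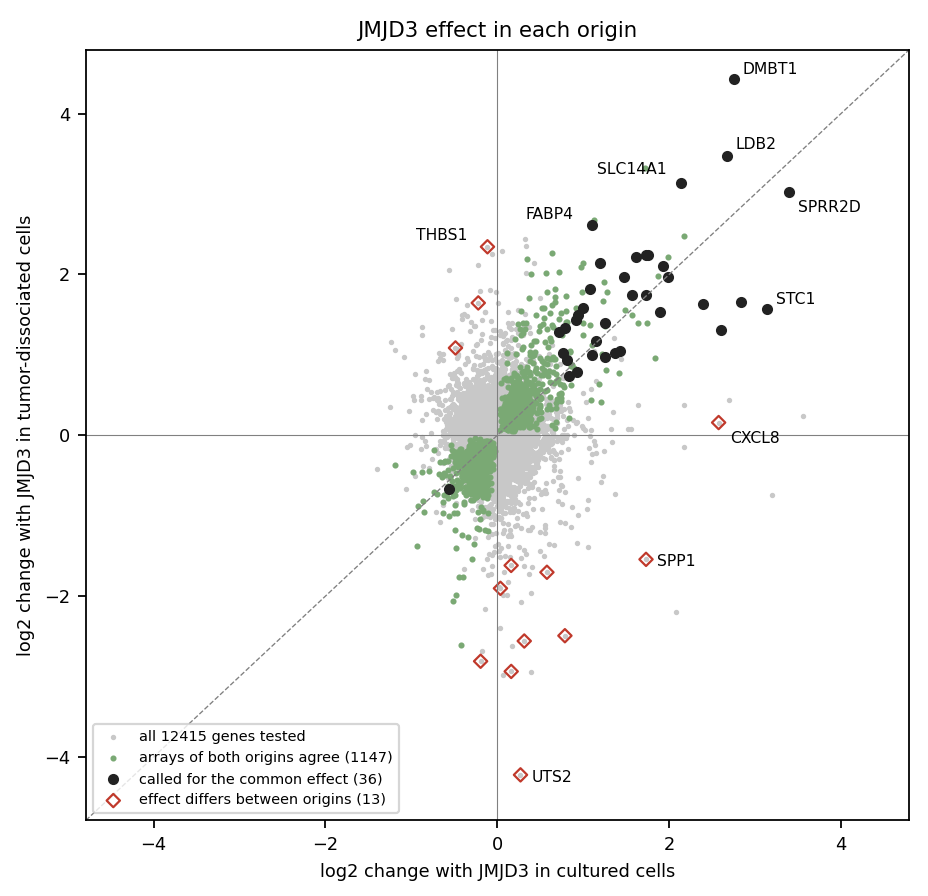
Log2 change, JMJD3 over vector, in cultured cells (horizontal axis) and in tumor-dissociated cells (vertical axis) for all genes tested, 1 point a gene, with the 1147 agreeing genes in green, the 36 called genes in black and the 13 genes whose effect differed between origins as diamonds. The dashed line marks equal change. The 35 called rises lie in the upper right and TMEM108 in the lower left.

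Of the 35 called rises, 23 had log2 changes within 1.5 times of each other, 22 were larger in tumor-dissociated cells and 13 in cultured cells. The additive fit counts a difference between origins as residual spread, so its calls favour genes with close effects, and the 23 of 35 is no result. Among the 47 rises called with group means, which do not, 25 were within 1.5 times. None of the 36 passed the test of a difference between origins, where the lowest adjusted p was 0.289 by limma and 8 had an unadjusted p under 0.05. With 2 arrays a group, a missed threshold does not show that the origins respond alike.

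Over all genes, 13 (0.105%) did pass that test, 11 of them with opposite signs in the 2 origins, and the adjusted p of their common effect ran from 0.312 to 0.976 by limma. In 7 of the 11 the cultured change was within 2 standard errors of 0, UTS2 and THBS1 among them, and in RCAN2 both cultured groups were within background. SPP1, VAV3 and ZBTB38 remain with changes beyond 2 standard errors in both origins. UTS2, the peptide urotensin II, had intensities of 179.6 and 172 on the cultured vector arrays, 179 and 205 on the cultured JMJD3 arrays, 7594 and 7567 on the tumor-dissociated vector arrays and 336 and 788 on the tumor-dissociated JMJD3 arrays. It was lower with JMJD3 in tumor-dissociated cells, where the vector level was high, with 0.27 in cultured and -4.22 in tumor-dissociated cells. SPP1, the matrix protein osteopontin, gave 280.4 and 272 on the cultured vector arrays, 681 and 676 on the cultured JMJD3 arrays, 4721 and 8892 on the tumor-dissociated vector arrays and 1842 and 2847 on the tumor-dissociated JMJD3 arrays. It was higher with JMJD3 in culture and lower in tumor-dissociated cells, 1.73 against -1.54, and the average was 0.09 ± 0.57. CXCL8, a neutrophil-attracting chemokine, stood at 2.58 and 0.16, and THBS1, an anti-angiogenic matrix protein, at -0.11 and 2.34. These last 2 genes, like CCL2, LAMB3, MMP1 and LIMCH1, were chosen after their values were seen.

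The lists of Polycomb enzymes and of HOX genes, classic Polycomb targets, had no called member. The Polycomb and H3K27 enzymes had 0 of 15 called and a median of -0.12 (-0.19 leaving out tumor-dissociated JMJD3 replicate 2 and -0.07 leaving out tumor-dissociated vector replicate 2), with MTF2, a Polycomb accessory protein, at -0.28 and CBX2, a reader of the mark, at -0.33. The HOX genes had 0 of 23 called and a median of -0.03 (-0.08 leaving out tumor-dissociated vector replicate 2 and 0.04 leaving out tumor-dissociated vector replicate 1), with arrays agreeing on a rise for 2 and on a fall for 2. Rises and falls with agreeing arrays were each 8.70% of the HOX list, against 4.76% and 4.48% of all genes tested. HOXB2 stood at -0.41 and HOXD13 at 0.66. Their adjusted p by limma were 0.489, 0.551, 0.276 and 0.492. At an unadjusted p under 0.05, 0 Polycomb genes were higher and 1 lower, and 2 HOX genes were higher and 1 lower. Of all 12415 genes tested, 647 were higher and 573 lower at that threshold.

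Stress and signalling lists also had no call for the common effect. Among AP-1 and immediate early genes, 17 of 18 stood above 0, beside 6035 of all 12415 genes tested. Arrays agreed on a rise for 2 of the 18, or 11.1%, and on a fall for 0, against 4.76% and 4.48% of all genes tested. The AP-1 list's median was 0.20 (0.07 leaving out tumor-dissociated vector replicate 2 and 0.29 leaving out cultured vector replicate 1), with 0.02 in cultured and 0.53 in tumor-dissociated cells, and JUN, a subunit of AP-1, stood at 0.49 and ATF3 at 0.27. MAPK output had a median of 0.08 (0.01 leaving out tumor-dissociated vector replicate 1 and 0.16 leaving out cultured vector replicate 1), with DUSP4, a MAP kinase phosphatase, at 0.50 and SPRY1, a feedback inhibitor, at -0.51. TGF-beta genes had a median of 0.16 (0.08 leaving out cultured vector replicate 2 and 0.18 leaving out cultured vector replicate 1) with 0 of 14 agreeing either way, against 9.24% of all genes, TGFBR2 at 0.62 and TGFB2 at 0.90. TGFB2 stood at 0.24 in cultured cells and at 1.56 in tumor-dissociated cells, where it passed alone with an adjusted p of 0.0063 by limma. The difference between origins did not pass, with an adjusted p of 0.131 by limma. The p53 list had CDKN1A, which halts the cell cycle, at 0.77 ± 0.15 with an adjusted p of 0.128 by limma, and PHLDA3 at 0.24, with a list median of 0.09 (0.04 leaving out cultured JMJD3 replicate 2 and 0.10 leaving out cultured JMJD3 replicate 1). CDKN1A had intensities of 2533, 2692, 3368 and 2958 on the vector arrays and 3651, 4043, 7362 and 4943 on the JMJD3 arrays, with every JMJD3 array above every vector array and no call. At an unadjusted p under 0.05 the lists had 2 higher and 0 lower for AP-1, 2 and 1 for MAPK output, 3 and 0 for TGF-beta and 1 and 0 for p53. The same counts over all 12415 genes tested were 647 and 573.

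Cell cycle genes stood above 0 in 6 of 33 cases, with a median of -0.14 (-0.26 leaving out tumor-dissociated JMJD3 replicate 2 and -0.03 leaving out tumor-dissociated JMJD3 replicate 1), CENPF at -0.44 and KIF11 at -0.38, both mitotic proteins. Over all 12415 genes tested, 6035 stood above 0. Hypoxia and glycolysis had a median of 0.07 (0.03 leaving out tumor-dissociated vector replicate 1 and 0.13 leaving out cultured JMJD3 replicate 2) with NDRG1 at 0.64 and P4HA2 at 0.67. P4HA2 stood at 0.16 in cultured cells and at 1.18 in tumor-dissociated cells, where it passed alone with an adjusted p of 0.0380 by limma. Its difference between origins did not pass, with an adjusted p of 0.414 by limma. The unfolded protein and ATF4 list had a median of -0.03 (-0.12 leaving out tumor-dissociated JMJD3 replicate 2 and 0.06 leaving out cultured vector replicate 1), with ASNS, the asparagine synthetase, at -0.71. Cholesterol synthesis genes stood above 0 in 2 of 12 cases, with a median of -0.09 (-0.09 leaving out cultured vector replicate 2 and -0.04 leaving out tumor-dissociated vector replicate 2), HMGCS1 at -0.19 and MVK at -0.18. Interferon-stimulated genes had a median of 0.06 (-0.01 leaving out tumor-dissociated vector replicate 2 and 0.12 leaving out tumor-dissociated JMJD3 replicate 2), with ISG20 at -0.53 and OASL above background on 6 arrays. Antigen presentation genes had a median of 0.27 (0.12 leaving out tumor-dissociated vector replicate 2 and 0.35 leaving out tumor-dissociated vector replicate 1), with HLA-F at 0.48 and HLA-G at 0.37. None of these genes passed limma's threshold for the common effect. At an unadjusted p under 0.05 there were 0 higher and 2 lower for the cell cycle, 2 and 0 for hypoxia, 1 and 2 for the unfolded protein list, 0 and 0 for cholesterol, 1 and 1 for interferon and 2 and 0 for antigen presentation. All 12415 genes tested gave 647 higher and 573 lower.

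**Figure D5:**
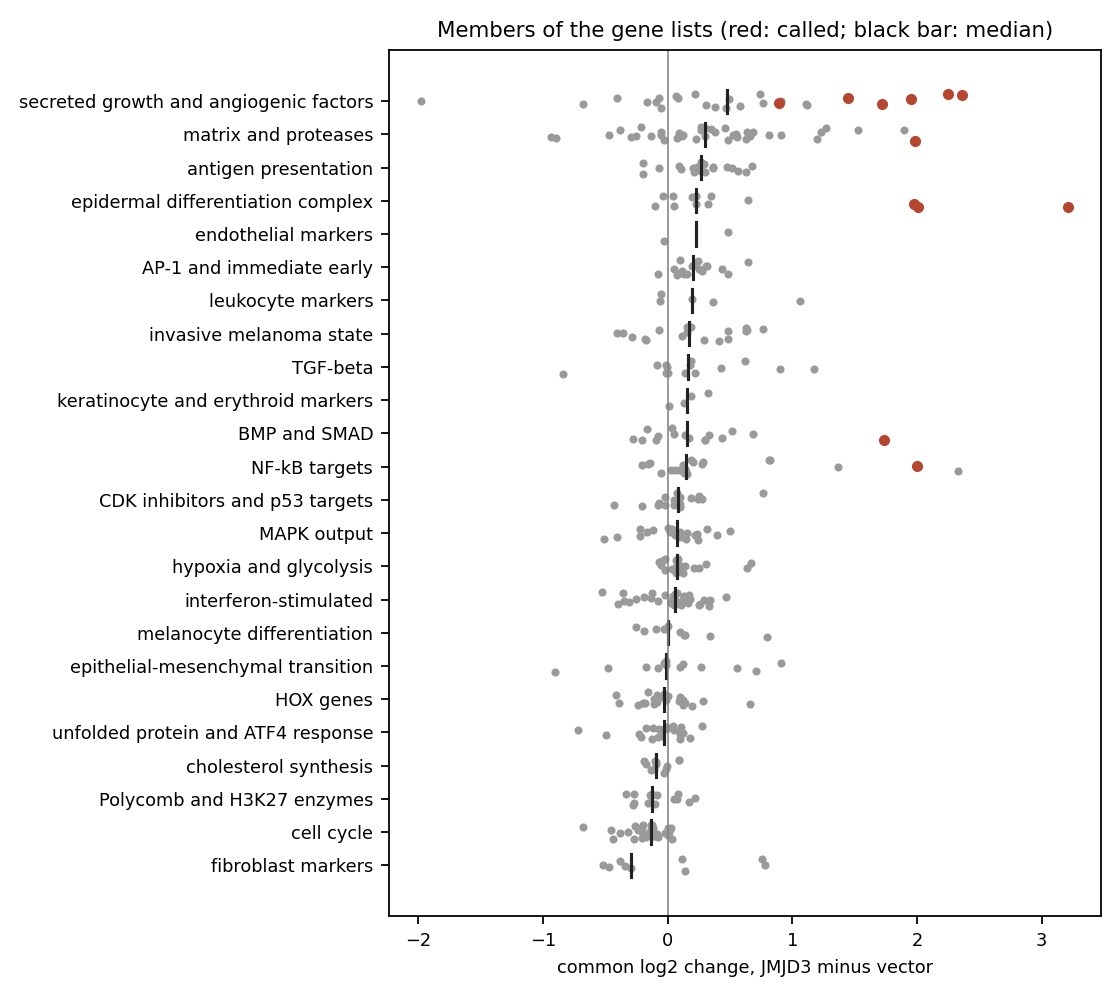
Common log2 change, JMJD3 over vector, of each tested member of the 24 gene lists, 1 point a gene, with called genes in red and a black bar at each list's median. The lists were chosen with earlier results of these data known, so the order of their medians is a description. The secreted growth and angiogenic factors have the highest median, 0.48, and the fibroblast markers the lowest, -0.29, which moved to -0.02 without tumor-dissociated JMJD3 replicate 2, closer to 0 than the main median of the cell cycle list.

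The labelled cell type was checked against melanocyte and melanoma markers. MITF and SOX10, transcription factors of the melanocyte lineage, were above background on all 8 arrays, while MLANA, TYR, KIT, SLC45A2 and TRPM1, among them pigment genes, were never above it on any array. SOX10 intensity ran from 1188 to 3096 on 7 arrays and was 231 on tumor-dissociated vector replicate 2. Melanocyte genes had 0 of 11 called and a median of 0.00 (-0.07 leaving out tumor-dissociated vector replicate 2 and 0.18 leaving out tumor-dissociated vector replicate 1), with TFAP2A at 0.34 and PAX3 above background on 2 arrays. The invasive melanoma state list had 0 of 18 called, with arrays agreeing on a rise for 5 and on a fall for 1, a median of 0.17 (0.12 leaving out cultured JMJD3 replicate 2 and 0.30 leaving out tumor-dissociated vector replicate 1), EGFR at 0.63 and NRP1 at 0.63. The epithelial-mesenchymal transition list had a median of -0.01 (-0.03 leaving out tumor-dissociated vector replicate 1 and 0.09 leaving out cultured JMJD3 replicate 2), with TWIST2 at 0.56 and SNAI2 at 0.71, and none passed by limma. At an unadjusted p under 0.05 there were 1 higher and 0 lower for melanocyte genes, 6 and 1 for the invasive state and 3 and 1 for the epithelial-mesenchymal list. Over all 12415 genes tested the counts were 647 and 573. Agreeing rises and falls were 27.8% and 5.56% of the invasive list, against 4.76% and 4.48% of all genes tested.

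Markers of other cell types were read beside these results. The probes are for human transcripts, and whether they read transcripts of the animal that bore the tumor was not tested. The values are therefore no check for host cells. Fibroblast markers were summed over 11 genes as deposited intensity less 139.7, the mode of the low values, with values under that mode counted as 0. The sums ranged from 534 to 900 in cultured cells and from 2525 to 5122 in tumor-dissociated cells. In tumor-dissociated cells they ranged from 2525 to 3063 with vector and from 2540 to 5122 with JMJD3. Of 9 tested, 4 stood above 0 and 5 below, and none was called by limma. Over all 12415 genes tested, 6035 stood above 0. The changes of the 9 follow. ACTA2 stood at 0.78, PDGFRB at 0.76, LUM at 0.14 and FAP at 0.12, while COL1A1 stood at -0.29, DCN at -0.34, COL1A2 at -0.38, COL3A1 at -0.47 and PDGFRA at -0.52. Their median was -0.29 (-0.34 leaving out cultured vector replicate 1 and -0.02 leaving out tumor-dissociated JMJD3 replicate 2), with 0.15 in cultured and -0.38 in tumor-dissociated cells. COL1A2, COL3A1, PDGFRA and FAP were brightest on tumor-dissociated vector replicate 2, and DCN on tumor-dissociated vector replicate 1. ACTA2, PDGFRB, LUM and COL1A1 were brightest on tumor-dissociated JMJD3 replicate 1. So were 24 of the 35 called rises, among them DMBT1, LDB2, IGFBP7 and STC1, and also CCL2, LAMB3 and CSF1R. The share of all genes tested that were brightest on that array was not counted. The part of these markers in those results was not tested. Without that array 31 genes were called, 24 of them among the 36. PTPRC, CD3D, CD3E, CD4, CD8A, MS4A1 and NKG7 were never above background, nor were the endothelial CDH5, CLDN5, KDR, TIE1 and VWF. Other members of these 2 lists were detected. CD68, with intensities from 1289 to 1688, AIF1, CD14 and the endothelial ESAM were above background on all 8 arrays, and LYZ on 7. Leukocyte markers had 0 of 5 called with CSF1R at 1.06 and CD14 at 0.20, endothelial markers 0 of 2 with PECAM1 and ESAM, and the keratinocyte and erythroid list 0 of 4 with HBA1 and HBA2. At an unadjusted p under 0.05, 1 gene was higher in each of the fibroblast, leukocyte and endothelial lists, 0 in the keratinocyte list and 0 lower in any of the 4. Among all 12415 genes tested, 647 were higher and 573 lower.

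The calls were uneven in how they held. Of the 36, SLC14A1, VAT1L, SPRR2F, SPRR2D, FGFBP1, BMP2 and TFPI2 passed in all 8 fits that left out 1 array. The number of genes called ranged from 10, without cultured JMJD3 replicate 1 or tumor-dissociated vector replicate 1, to 66 without tumor-dissociated JMJD3 replicate 2, and was 11 or 18 when vector replicate 2 or vector replicate 1 of the cultured cells was left out, 14 when their JMJD3 replicate 2 was, 20 when vector replicate 2 of the tumor-dissociated cells was and 31 when their JMJD3 replicate 1 was. With the replicate number as a block, 29 genes were called, 28 higher, and 18 of the 36 were shared. The 18 lost under the block had adjusted p up to 0.153 by limma and were ACTBL2, ANKRD1, IGFBP3, KIAA0040, NTSR1, STC1, TNFRSF11B, TSHZ2, PDE4B, CHGB, CD55, TSC22D1, NRG1, APOBEC3G, ITGA2, FABP4, PLXNA2 and TMEM108. Other probes for the called genes were few: 9 of 26 were above background on 2 or more arrays, and 8 of those 9 moved the same way with agreeing arrays.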

How the data were processed

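RNA of 8 samples was hybridised to Illumina HumanHT-12 BeadChips, 1 colour, 1 array a sample. The values are linear intensities deposited by the authors in the series' value table, made with GenomeStudio framework 2011.1 and module 1.9.0 per the submitters' processing notes. The columns share 1 distribution (sorted columns differ by at most 0.0057 on the log2 scale), so no further scaling was done. The labels name no genome build for the probes, and 16 further columns that name no sample, with detection values, were not used.

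A background level of 161 was set from the mode of the low values, 139.7, and their spread. Of 47323 probes, 30113 had 1 gene symbol, 8 several and 17202 none; 22287 probes were above that level on at least 2 of 8 arrays, and for each of 12415 genes the probe with the highest mean intensity was kept. Intensities were background-corrected by normexp with an offset of 16 and put on the log2 scale. limma 3.58.1 in R 4.3.3 fitted construct with origin as a covariate (5 residual and 4.60 prior degrees of freedom), with Benjamini-Hochberg adjustment over all genes. Group means, fitted over all 8 arrays with the spread of each gene pooled over both origins, gave each origin's effect and their difference. "At least" folds set the brighter mean against a bound where a vector group was never above background: the higher of the dim probe's own signal and the lowest signal above background. Agreement means that both JMJD3 arrays lie beyond both vector arrays in each origin. The script was tested on simulated data.

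The labels number replicates 1 and 2 in each group. Deviations from group means correlated between same-numbered arrays, 0.371 in cultured and 0.105 in tumor-dissociated cells, 1 independent value an origin, and fits with and without a replicate block are given. The text names the 14 called genes with the largest rise, every called fall, KDM6B, called list members, up to 2 members with the lowest p in a list with no call, and the 3 genes with the largest difference between origins; other genes were named after their values were seen. The 24 gene lists (551 entries) and the comparison were chosen with earlier results of these data known. Alternatives covered background correction, the filter on dim probes, the probe rule, the model and each array left out.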

Additional observations from a re-analysis of the deposited data

Results flagged for a closer look

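For 3 genes the JMJD3 effect differed between origins by limma's test of the difference itself, and these were the largest such differences among the 13 genes past its threshold. UTS2 changed by -4.49 more on the log2 scale in tumor-dissociated than in cultured cells, and SPP1 by -3.27. The value for RCAN2 was -3.28, but both cultured groups were within background there, so the cultured effect behind it was not measured. None of the 3 was called for the common effect.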

How the results depend on the processing

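Over 20 alternatives the called genes moved in 1 direction in all 702 recomputed values, and 444 of those were still called. FGFBP1, SLC14A1 and SPRR2F passed in every alternative that tested them. The count of called genes, 36, was 10 with no background correction, 18 with probes above background on all 8 arrays, 59 with group means (47 higher and 12 lower) and 4 without the origin covariate. It was 29 with the replicate block (28 higher and 1 lower), 47 with array weights (45 higher and 2 lower), 46 with an intensity trend, 30 with an offset of 50, 39 with no filter, 37 above background on at least 4 arrays and 33 with probe means. Leaving out 1 array gave from 10 to 66 calls, from 10 to 61 higher and from 0 to 5 lower, and as many with agreeing arrays, 10 to 66. Genes never called reversed sign in a few fits: with probe means TFAP2A stood at -0.0084 and PAX3 at 0.058. When 1 array was left out, the ESAM value ranged from -0.14 to 0.077, above 0 in 3 of 8 such fits, and the SPP1 value ranged from -0.25 to 0.61, below 0 whenever a cultured array was the one left out; without any correction SPP1 stood at -0.10. The cause of these changes was not tested. Fewer arrays or probes entered some fits, and leaving out 1 array gave the other origin more weight in the common change. Scaling to equal medians and a slide block were not run, since the columns share a distribution and no slide is given. The leaving-out of both arrays that stood apart was chosen after seeing the data. With 2 arrays a group and many genes near background, small or dim changes cannot be resolved.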
